A study of Drosophila melanogaster with 2 samples.

Results

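Of the 1708 nuclear regions that the authors' irreproducible discovery rate (IDR) procedure kept for the dsf-eGFP fusion protein, 324 had their summit in an intron, away from promoters. The IDR procedure is meant to keep the regions that replicates rank alike. The summit is the position of strongest signal that the authors' file gives for each region. A summit was taken as intronic when it lay more than 1000 bp from every annotated transcription start site (TSS), inside a gene and outside all exons. Genes of any biotype counted, annotated transposable elements were left out, and summits had to lie on X, on 2L, 2R, 3L or 3R, or on chromosome 4. The 324 summits made up 19.0% of the nuclear regions (95% interval 17.1% to 20.9%). Intervals for shares are exact (Clopper-Pearson), those for densities are exact Poisson intervals, and both cover counting error only. A further 1243 summits lay within 1000 bp of a TSS and are called promoter summits, 124 were intergenic and 17 were in exons. The whole list held 1731 regions, 23 of them mitochondrial and not used here.

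The regions come from chromatin immunoprecipitation and sequencing (ChIP-seq) of whole Drosophila melanogaster larvae in the third instar, at the wandering stage, with males and females pooled. All larvae carried a transgene for dsf with GFP fused to its C-terminus, the chromatin was sonicated, and the fusion protein was recovered with an antibody against GFP. There was 1 group of 2 biological replicates, numbered 3 and 4 in the labels and tied to separate biosamples, and no control experiment was analysed here. The fusion is made from a transgene, all tissues of the larva are mixed, and the files hold no read counts, so neither the tissue behind a region nor the sequencing depth is known.

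The product of dsf (dissatisfaction) is an orphan nuclear receptor related to tailless. It is needed for courtship and mating behaviours that differ between the sexes, and for the neurons behind them. Receptors of the tailless group bind DNA through zinc fingers, and an AAGTCA half-site is known for tailless and its vertebrate relative. Introns, and long first introns above all, are known to hold many of the enhancers of developmental genes in flies, so an intronic summit need not belong to the promoter of its host gene.

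Of 5 strong summits printed first, 4 had sequences rich in A and T, with a GC content of 22.8% to 32.7%, while that of CG13917 had 39.6%. The summit of CG32486, stronger than those of Eip75B and CG13917, is printed in the second set instead and had 35.6%. The windows from 50 bp before to 50 bp after these 5 summits are printed from the release 6 (dm6) genome, plus strand, 5′ to 3′, to show this range of composition. Capitals mark unbroken runs of 6 or more A or T bases. The windows lie in introns of CG11050 (chr2L:6612659-6612759), ush (chr2L:481054-481154), CG32772 (chrX:4910311-4910411), Eip75B (chr3L:18011842-18011942) and CG13917 (chr3L:1591829-1591929).
CG11050: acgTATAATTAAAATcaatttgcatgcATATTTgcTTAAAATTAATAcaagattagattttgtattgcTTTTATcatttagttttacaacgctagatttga
ush: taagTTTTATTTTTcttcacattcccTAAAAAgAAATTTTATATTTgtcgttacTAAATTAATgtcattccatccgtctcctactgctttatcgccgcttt
CG32772: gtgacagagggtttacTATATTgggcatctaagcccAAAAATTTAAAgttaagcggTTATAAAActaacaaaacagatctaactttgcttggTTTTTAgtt
Eip75B: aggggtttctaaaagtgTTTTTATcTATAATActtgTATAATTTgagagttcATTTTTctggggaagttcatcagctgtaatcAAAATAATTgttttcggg
CG13917: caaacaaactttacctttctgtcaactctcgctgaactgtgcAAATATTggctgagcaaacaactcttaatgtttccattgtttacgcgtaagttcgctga

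A second set shows the strongest printable summits among the 23 intronic ones that hold words found more often at promoter summits. Capitals mark ATCGAT or TATCGA, on either strand and merged where they overlap (TCGATA is the reverse complement of TATCGA). These are letters of the DNA replication-related element, a motif known from fly promoters. The windows, from the same genome and strand, lie in introns of CG32486 (chr3L:3060752-3060852), for (chr2L:3655727-3655827), Kdm2 (chr3R:9055894-9055994) and wit (chr3L:4070531-4070631).
CG32486: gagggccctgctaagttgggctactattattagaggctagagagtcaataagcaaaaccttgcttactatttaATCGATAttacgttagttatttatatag
for: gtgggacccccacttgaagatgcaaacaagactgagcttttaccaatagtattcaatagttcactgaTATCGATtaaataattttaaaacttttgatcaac
Kdm2: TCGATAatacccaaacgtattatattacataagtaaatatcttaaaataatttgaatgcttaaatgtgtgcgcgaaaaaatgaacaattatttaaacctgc
wit: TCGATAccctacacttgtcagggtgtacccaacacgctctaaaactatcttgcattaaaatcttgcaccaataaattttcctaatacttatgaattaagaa

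A further set shows the strongest printable summits with AAGTCA, the half-site known for the tailless group, in capitals on either strand (TGACTT is its reverse complement). The windows lie in introns of smash (chr3R:4665126-4665226), Mekk1 (chr3R:18741708-18741808), Pits (chrX:12579663-12579763) and osp (chr2L:14685764-14685864). The word lay at a different place in each window, next to the summit in Pits and at the edge of the window in smash.
smash: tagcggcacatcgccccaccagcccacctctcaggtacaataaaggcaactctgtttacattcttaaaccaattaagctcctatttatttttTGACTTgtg
Mekk1: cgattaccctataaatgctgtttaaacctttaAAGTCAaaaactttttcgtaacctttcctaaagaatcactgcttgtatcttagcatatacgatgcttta
Pits: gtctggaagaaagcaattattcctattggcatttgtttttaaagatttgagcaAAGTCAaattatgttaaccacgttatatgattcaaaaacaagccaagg
osp: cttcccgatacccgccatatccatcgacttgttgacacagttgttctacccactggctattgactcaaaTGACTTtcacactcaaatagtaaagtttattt

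The strongest intronic summits ranked near the top of the whole list. Signal is the authors' deposited value for each region, in a unit not given in the sources used here, and serves to describe and rank regions. The summit in CG11050 ranked 3 among nuclear regions, with a joint signal of 695 that stood at 275 for replicate 3 and 410.4 for replicate 4. It lay in intron 2 of 4, which is only 140 bp long, so the 320 bp region spans the neighbouring exons, and it was 1022 bp from the nearest TSS. In ush, which encodes a zinc finger cofactor of GATA factors, a first-intron summit had a signal of 587 (272 in replicate 3 and 315 in replicate 4) and ranked 4. Its nearest TSS was that of the neighbouring gene cbt, 1416 bp away, while the nearest TSS of ush was 4884 bp away. A second summit in the same intron of ush had a signal of 264, with 100.1 and 164 in the replicates. The summit in CG32772 had 548 (215 and 330.2) and that in CG32486 had 498 (231 and 267).

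Hosts of the next strongest summits included regulators of the ecdysone response and of chromatin. Eip75B, an ecdysone-induced nuclear receptor, held a summit with a signal of 381 (170 in replicate 3 and 213 in replicate 4), 12071 bp from its nearest TSS in an intron of 32334 bp. CG13917 followed with 371 (143 and 227). Tlk, which encodes the Tousled-like kinase, had 336 (170.1 and 167). CG12769 had 322 (143 and 179). The junction scaffold gene smash had 296 (122 and 169.8). The phospholipase C gene norpA, of phototransduction, had 290.0 in the joint list and almost equal values in the replicates, 146 and 148. CG3726 had 275 (144 and 129.7), and with Tlk made up the 2 of the 20 strongest summits that were higher in replicate 3. Raf, a kinase of the MAP kinase pathway, had 263 (108 and 148). The trithorax group genes trx and Trl, the latter coding for GAGA factor, had 253 (84.3 and 152) and 248 (113 and 134). The remaining hosts among the 20 strongest were babos (247), the nuclear receptor genes Eip78C (237) and Hr4 (228), CG42238 (218), and edl (216), which encodes an inhibitor of ETS factors. All 20 were among the 1731 strongest regions of both replicates, and 17 of them lay in a first intron of at least 1 transcript.

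Signal over all 324 members ran from 73.6 to 695 with a median of 100.9, against medians of 107 for promoter and 94.1 for intergenic summits. The 25% of nuclear regions with the highest signal held 22.8% of the intronic summits, 26.6% of promoter summits (odds ratio 0.816, adjusted p = 0.264 by Fisher's exact test) and 16.1% of intergenic summits (odds ratio 1.54, adjusted p = 0.264). The tests are two-sided with Benjamini-Hochberg adjustment over 6 comparisons between classes, and they take regions as units although regions are not independent replicates. Neither difference passed the threshold of 0.05. From the strongest regions of replicate 3 alone, that is without replicate 4, the odds ratio against promoter summits was 0.663 (adjusted p = 0.0263 by the same exact test), and without replicate 3 it was 0.913 (adjusted p = 0.837).

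Each replicate placed most intronic summits among its own strongest 1731 regions. A summit within 100 bp was found there for 255 members in replicate 3 (78.7%, interval 73.8% to 83.0%) and for 250 in replicate 4 (77.2%, interval 72.2% to 81.6%). Both replicates placed 198 members there (61.1%), replicate 3 alone 57, replicate 4 alone 52, and neither 17. Both replicates went into the joint list, so these shares are partly built in. Somewhere in the full list of 29999 regions, background included, 15 members had no match in replicate 3 and 3 had none in replicate 4. A summit in EcR, the ecdysone receptor gene, had a signal of 62.0 in replicate 4 and no match in replicate 3. A summit in kirre, which encodes an adhesion protein of myoblast fusion, had 37.3 in replicate 3 and no match in replicate 4.

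Recovery among the strongest regions of a replicate did not differ between classes past the threshold in the main comparison, though it did under other settings. Recovery is partly built in, since both replicates went into the joint list, and regions are not independent replicates. The tests below therefore describe the lists alone. Replicate 3 recovered 78.7% of intronic against 73.2% of promoter summits (odds ratio 1.35, adjusted p = 0.137 by Fisher's exact test) and 66.9% of intergenic summits (odds ratio 1.83, adjusted p = 0.0828). Replicate 4 recovered 77.2%, 77.6% and 77.4% of the same classes (odds ratios 0.973 and 0.985, adjusted p = 1 for both, by the same Fisher's exact tests). With a TSS limit of 500 bp, replicate 3 recovered intronic summits more often than promoter (odds ratio 1.46, adjusted p = 0.0351) and intergenic summits (1.71, adjusted p = 0.0438, both by Fisher's exact test). Among the 50% of regions with the highest signal the odds ratio against promoter summits was 3.43 in replicate 3 and 8.86 in replicate 4 (adjusted p = 0.0238 for both by the same exact test). Against intergenic summits it was 3.02 in replicate 3 (adjusted p = 0.164 by the same exact test) and 0 in replicate 4, neither past the threshold. The 0 means that replicate 4 missed no intergenic summit there. When a match anywhere in the full replicate list was accepted, intronic summits were found more often than promoter summits. The shares were then 95.4% against 87.0% in replicate 3 (odds ratio 3.07, adjusted p = 4.16e-05) and 99.1% against 95.7% in replicate 4 (odds ratio 4.77, adjusted p = 0.00641 by the same exact test). Intergenic summits then had shares of 96.0% and 97.6% (odds ratios 0.866 and 2.65, adjusted p = 1 and 0.425 by the same exact test), so a difference from them was not detected.

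Among the 306 members with a match in both full lists, signal was higher in replicate 4 for most. It ran from 11.8 to 275 (median 42.0) in replicate 3 and from 29.2 to 410.4 (median 61.2) in replicate 4. The ratio of replicate 4 to replicate 3 had a median of 1.46 and quartiles of 1.15 and 1.85, close to the median of 1.40 over 1037 promoter summits. Spearman's rho between the replicates was 0.544 and Pearson's r of log10 signal 0.651, against 0.586 and 0.649 for promoter summits. These correlations are over regions that share the same pair of libraries and were chosen on their joint rank, and they describe the lists.

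**Figure D1:**
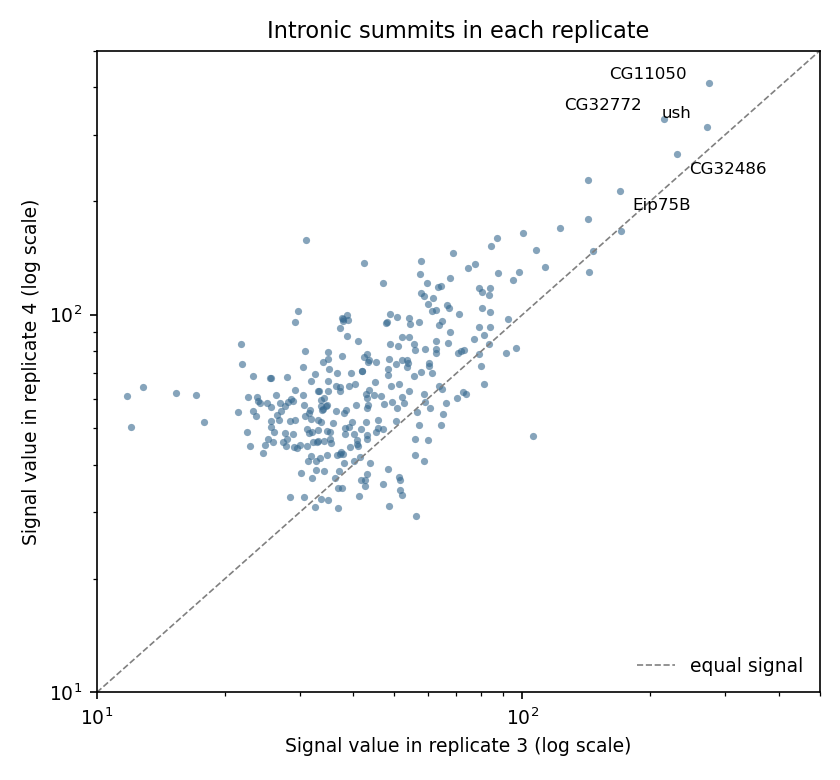
Signal value of each intronic summit found in both replicates' full lists (306 points), replicate 3 on the x axis and replicate 4 on the y axis, both log scales without a unit. The dashed line marks equal signal, most points lie above it (median ratio 1.46), and the summits of CG11050, ush, CG32772, CG32486 and Eip75B are named at the upper right.

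The intronic share of summits grew as signal fell. By rank among nuclear regions of the pooled list, which the authors made from both replicates, 17.6% of ranks 1 to 433 were intronic, then 18.9%, 19.4% and 20.05% in the following bins up to rank 1708, where the IDR-thresholded list ends. Below that rank the share rose from 25.8% over ranks 1709 to 3500 to 42.9% over ranks 20001 to 29975. Promoter summits moved the other way, from 77.4% in the first bin to 28.5% in the last. The lower part of the list is described by the authors as background included, so its summits are not counted as members.

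**Figure D2:**
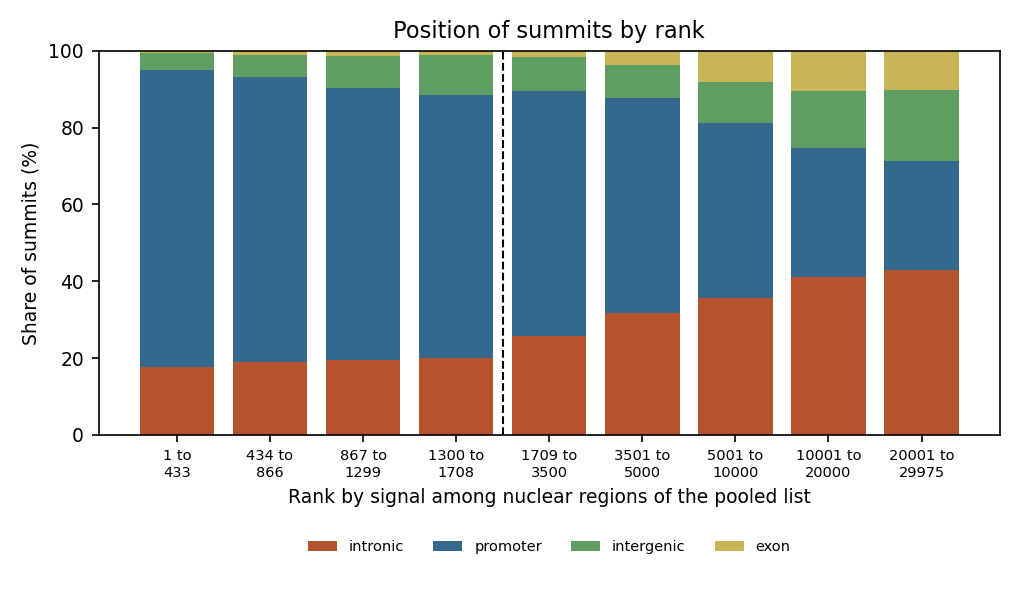
Share of summits (y axis, percent) in introns, promoters, intergenic sequence and exons by rank of signal in the pooled list (x axis, strongest at the left), with the end of the IDR-thresholded list as a dashed line. The intronic share was 17.6% in the first bin and 42.9% in the last.

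Intronic summits lay in first introns more often than the amount of sequence there. The eligible sequence, that is all intron bases which meet the same rule, came to 48.4 Mb, and the members had a density of 6.69 summits per Mb of it. A first intron of at least 1 transcript held 232 members (71.6%, interval 66.4% to 76.5%), while 41.0% of eligible bases lie in such introns. The density was 11.7 per Mb in those first introns and 3.22 per Mb in later introns alone. Where an intron had to be the first in every transcript that has it around the summit, the count was 141 (43.5%, beside 24.2% of eligible bases), or 12.02 per Mb. The 91 members in introns that are first in some transcripts and later in others had nearly the same density, 11.2 per Mb. The shortest intron around a summit had a median length of 11913 bp, and ran from the 140 bp of CG11050 to 126467 bp. The distance rule itself favours long introns, and these lengths were not compared with those of the eligible introns.

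Density was lower far from the nearest TSS than close to it, and first introns had more summits per Mb than later introns in every range of distance. The distance ran from 1022 to 42360 bp with a median of 3327.5 bp. There were 13.5 summits per Mb of eligible intron from 1 to 2 kb, 9.53 from 2 to 5 kb, 5.33 from 5 to 10 kb, 3.97 from 10 to 20 kb and 1.27 beyond 20 kb. First introns lie nearer to a TSS than later ones, so both were compared within each range of distance, a split chosen after the values were seen and given without a test. From 1 to 2 kb, first introns had 18.3 summits per Mb (interval 14.5 to 22.8) and later introns 5.92 (3.38 to 9.61). From 2 to 5 kb the densities were 13.4 (10.8 to 16.5) and 5.47 (3.81 to 7.61). The intervals of first and later introns did not overlap in these ranges, nor from 5 to 10 kb (8.48 against 2.99). Beyond 20 kb they did not overlap either (5.16 against 0.549), but this rests on only 7 and 4 summits. Some of those 7 share an intron of sbb. In every range the intervals take summits as independent, which summits of the same intron need not be, so the range beyond 20 kb decides little. From 10 to 20 kb the intervals did overlap, at 5.79 (3.31 to 9.41) against 3.10 (1.84 to 4.90), from 16 and 18 summits. In later introns the density did not fall at each step: it was nearly level from 1 to 5 kb, and again from 5 to 20 kb.

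**Figure D3:**
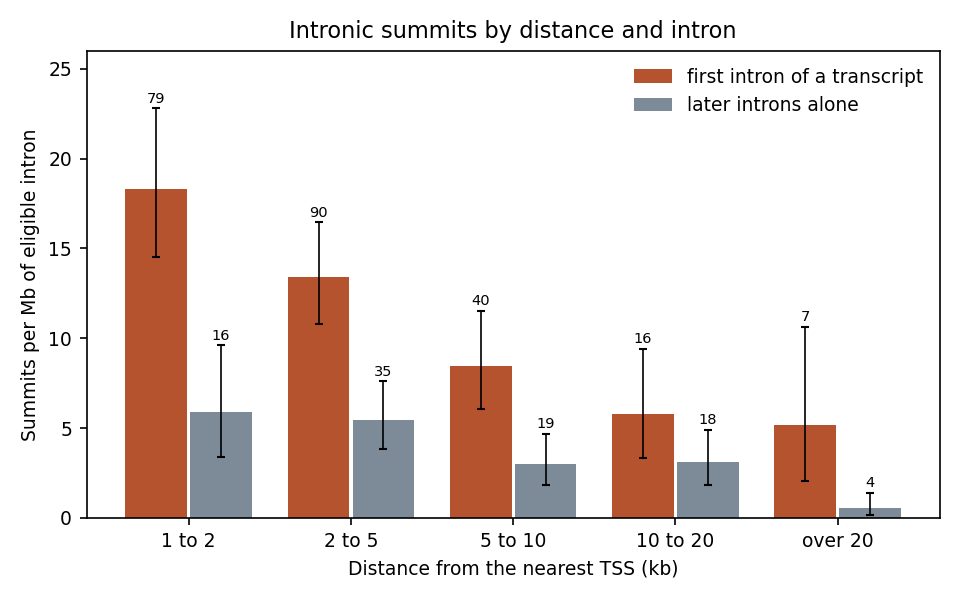
Intronic summits per Mb of eligible intron (y axis) by distance from the nearest TSS (x axis, kb), for first introns of a transcript and for later introns alone; bars start at 0, whiskers are exact 95% Poisson intervals and the small numbers give counts of summits. First introns stand above later introns in every range, from 18.3 against 5.92 nearest the TSS, with overlapping intervals from 10 to 20 kb alone. The bars beyond 20 kb rest on only 7 and 4 summits.

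The nearest TSS belonged to a host gene for 235 members (72.5%, interval 67.3% to 77.3%), and for the others it belonged to a neighbouring or nested gene. The 3 members closest to the distance limit were in CG11050 and CG6330, both 1022 bp from a TSS, and in Hsp83, the Hsp90 chaperone gene, 1039 bp away. Just outside the limit lay intronic positions in crb (994 bp), Lk6 (988 bp) and the overlapping genes Gyg and CG44245 (978 bp), with signals of 247, 517 and 137. A protein-coding gene hosted 317 members, 15 members had more than 1 host, and none lay inside an annotated transposable element, which allows a share of up to 1.13% by the exact interval.

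By arm, the X carried 68 members (21.0%), beside 19.3% of eligible intron bases and 12.6% of promoter summits. Arm 2L carried 62 (7.96 per Mb of eligible intron), 2R 57 (6.77), 3L 59 (6.21), 3R 78 (6.08) and X 7.26 per Mb. None lay on chromosome 4, which holds 1.09% of the eligible bases.

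In all 258 genes hosted a member. Among the 6852 protein-coding genes with any eligible intron bases, 249 did, which is the background of 3.63% against which lists of genes are read. Room for a summit differed widely, with a median of 16479 eligible bp in hosts and 549 in other genes. The share of genes that hosted a member rose with that room, from 0.0782% of genes with up to 1000 eligible bp to 22.5% of the 191 genes with over 50000. A summit within 1000 bp of an own TSS was also present for 78 of the 249 hosts (31.3%, interval 25.6% to 37.5%) and for 946 of the 6603 others (14.3%, interval 13.5% to 15.2%). At like room the shares stayed apart: 33.0% against 14.3% of genes with 5001 to 20000 eligible bp, 25.7% against 11.5% from 20001 to 50000, and 32.6% against 10.8% above that. The number of TSSs per gene, which also bears on having a summit near an own TSS, was not matched. These are descriptions over genes, which are not independent.

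Most hosts held a single summit (203 genes), while 40 held 2 and 15 held 3 or more. The gene sbb, which encodes the corepressor scribbler or brakeless, held 7, all in an intron up to 65649 bp long and all within 12.7 to 49.7 kb of the gene's 5′ end. Their signals ran from 95.7 to 145, replicate 3 gave 29.7 to 73.0 and replicate 4 gave 32.4 to 102, and 5 of the 7 were among the strongest of both replicates. So sbb was singled out by number of summits and not by the strength of any of them.

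Of the other hosts with 4 summits, ush and Tlk held strong ones and EcR and heca none above 108. In ush the 4 summits had signals of 587, 264, 80.7 and 140.3, at 4.88, 9.66, 36.1 and 54.2 kb from the gene's 5′ end. In Tlk 1 summit of 336 stood over others of 82.6 to 105. In EcR all 4 were weak (73.6 to 108) and lay from 17.8 to 25.5 kb into the gene. The 4 summits of tkv, the type I receptor of the Dpp pathway, ran from 83.4 to 148, and lay from 10.1 to 18.6 kb from its 5′ end. In kirre a pair lay at 46.3 and 47.0 kb and another at 301 and 313 kb, with signals from 81.4 to 157. The gene heca (headcase) held 4 between 86.4 and 104. CG1677 and lncRNA:CR44357 overlap and share the same 4 summits (75.3 to 141).

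Among hosts of 3, the summits of trx had signals of 253, 74.5 and 144, at 3.03, 3.72 and 8.85 kb. Those of Trl had 85.8, 248 and 104, at 1.33, 1.54 and 4.88 kb. In Raf they had 88.8, 263 and 82.0. In Btk, a Tec family tyrosine kinase, they had 139, 85.5 and 146. In simj, a subunit of the NuRD chromatin complex, they had 138.5, 139 and 86.4, and in Eip74EF, an ecdysone-induced ETS factor, 90.3, 125 and 87.8. Some of these neighbours lie so close that their regions overlap: the 2 of Trl are 203 bp apart and the 2 of simj 200 bp apart.

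**Figure D4:**
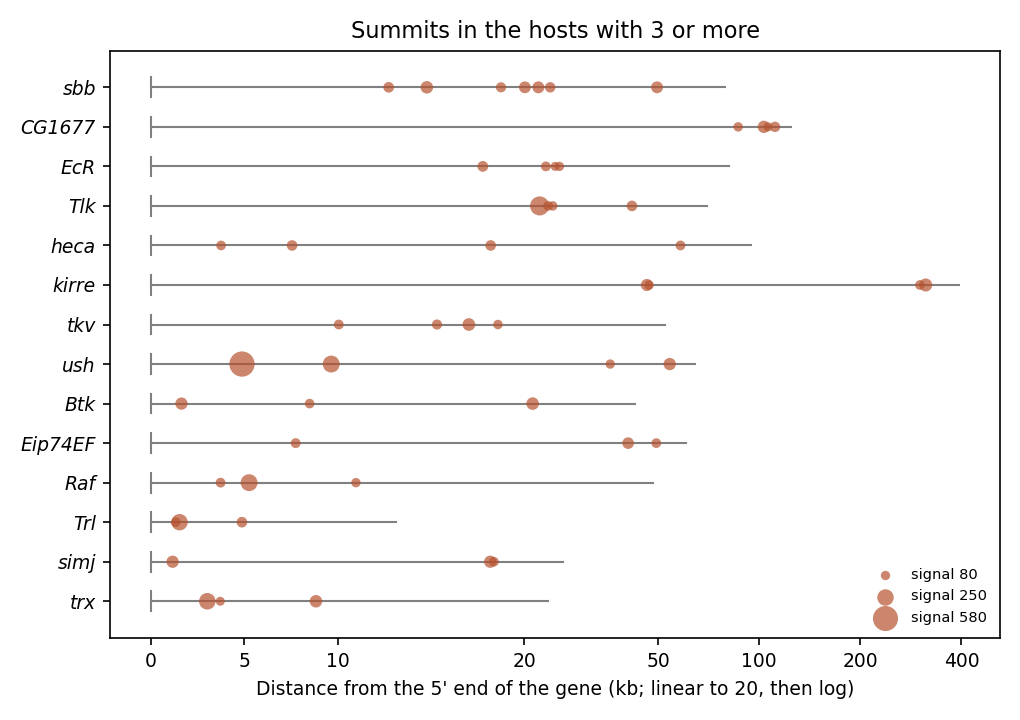
Summits (points, area by signal) along the genes that host 3 or more, as distance from the gene's 5′ end (x axis, kb, linear to 20 and log beyond); grey lines are the genes, and the overlapping lncRNA:CR44357 is not drawn. The 7 summits of sbb lie from 12.7 to 49.7 kb, and ush, Tlk, Raf, trx and Trl each have 1 or 2 points far larger than the rest.

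Over all hosts, 78 pairs of neighbouring summits shared a gene, and 64 pairs also shared an intron of a transcript. Spacing ran from 200 to 253792 bp with a median of 4410.5 bp, and 26 pairs were within 2000 bp. Close pairs can come from 1 broad signal, which these lists cannot tell apart.

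Of 8 lists of genes, all but that of neuronal excitability held a larger share of hosts than the 3.63% over all genes. Genes of most lists also have more room for a summit. The median was 19527 eligible bp for nuclear receptor genes, 39493 for ecdysone response genes and 11232 for signalling genes, against 626 over all genes. Of all genes with 5001 to 20000 eligible bp 9.03% were hosts, and of those with 20001 to 50000, 15.8%. Median room was 33892 bp for adhesion and axon guidance genes, 7304.5 for muscle and cytoskeleton genes and 36787 for neuronal genes. At such room the adhesion share (16%) was near that of all genes, and the muscle (6.25%) and neuronal (3.45%) shares were below it. The remaining lists had larger shares than all genes at their median room. Genes were not matched individually. Of 15 nuclear receptor genes with eligible intron bases, 5 hosted summits (33.3%, interval 11.8% to 61.6%), 10 summits in all or 26.3 per Mb, beside 6.45 per Mb over all protein-coding genes. They were EcR, Eip75B, Eip78C, Hr4 and knrl, the last a relative of the gap gene knirps. In Hr4 both summits were strong, 228 (95.01 and 124 in replicates 3 and 4) and 204 (80.3 and 114.55), and both lay in its first intron. The second summit in Eip75B had 125 (37.3 and 92.1), that in Eip78C 237 (98.3 and 129.8), and that in knrl 143 (55.7 and 83.9). Each of these was among the strongest regions of both replicates, whereas only 1 of the 4 in EcR was.

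Of 15 regulators of the ecdysone response, 7 were hosts (46.7%, interval 21.3% to 73.4%, 28.8 summits per Mb), and 4 of these are the nuclear receptor genes EcR, Eip75B, Eip78C and Hr4. The others were Eip74EF, tai, a coactivator of the ecdysone receptor, with signals of 125 and 77.7, and E23, an ecdysone-induced transporter, with 83.4 and 82.8. Neither summit of E23 was among the strongest of replicate 4 (34.7 and 37.2), while both were among those of replicate 3.

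Of 61 signalling genes, 16 were hosts (26.2%, interval 15.8% to 39.1%, 22.1 per Mb). They included the receptors tkv and put of the Dpp pathway, fz and fz2 of the Wnt pathway, the receptors N, Egfr and InR, the Notch ligand Delta, and the ETS factors pnt and aop downstream of Raf. Signals included 131 for N, 94.1 for Delta, 92.5 for Egfr, 106 for InR and 75 for pnt. Higher values were found in Ptp61F (168), tkv (148), Btk (146) and fz (138), and the 336 of Tlk was the strongest. Of 72 developmental transcription factors, 12 were hosts (16.7%, interval 8.92% to 27.3%, 15.0 per Mb). Besides ush, sbb and Trl they included shn, a zinc finger factor of Dpp signalling (195 and 142), vri, a repressor of the circadian clock (179 and 158), the homeotic gene Antp (91.0) and fru, known for male courtship (136).

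Of 21 Polycomb and trithorax group genes, 4 hosted 9 summits (19.0% of genes, interval 5.45% to 41.9%): trx and Trl, and the Polycomb genes ph-p (134 and 100.3) and Psc (138). The density was 126 per Mb, over eligible introns of only 71613 bp in all. Trl is also on the list of developmental transcription factors, while Tlk is on that of signalling genes and not on this one. At the other end, 8 of 50 adhesion and axon guidance genes were hosts (16%, interval 7.17% to 29.1%), but their introns are long and their density was 4.28 per Mb. Of 32 muscle and cytoskeleton genes, kst and ena were hosts (6.25%, interval 0.766% to 20.8%, 4.61 per Mb). Of 29 genes of neuronal excitability and synapses, mub, an RNA-binding protein gene, was the only host (3.45%, interval 0.0873% to 17.8%), with 1 summit of 107 in 1440492 eligible bp (0.694 per Mb). The lists do not hold every gene of their kind. Hosts outside them include the channel genes Irk1 (184) and Ca-beta (79.2), and the cytoskeleton genes Moe (98.4), hts (179.8) and dia (103). A low share of hosts therefore holds for the listed genes alone. All 8 lists were chosen with earlier results of these data known, so the counts describe the hosts and no test was made of them.

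The centre of the intronic regions was poor in GC. Within 50 bp of the summit the median GC content was 30.7% (quartiles 26.7% and 36.6%), while 250 to 350 bp away from the same summits it was 44.25%, and 39.8% over eligible introns. It was lower at the summit than in the flanks for 280 of 324 members (86.4%), against 77.0% of promoter and 87.9% of intergenic summits. The median at the summit was 30.7% both in the 25% of members with the highest signal and in the 25% with the lowest. GC content can affect how fragments are amplified and sequenced, and its part in the signal was not tested.

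**Figure D5:**
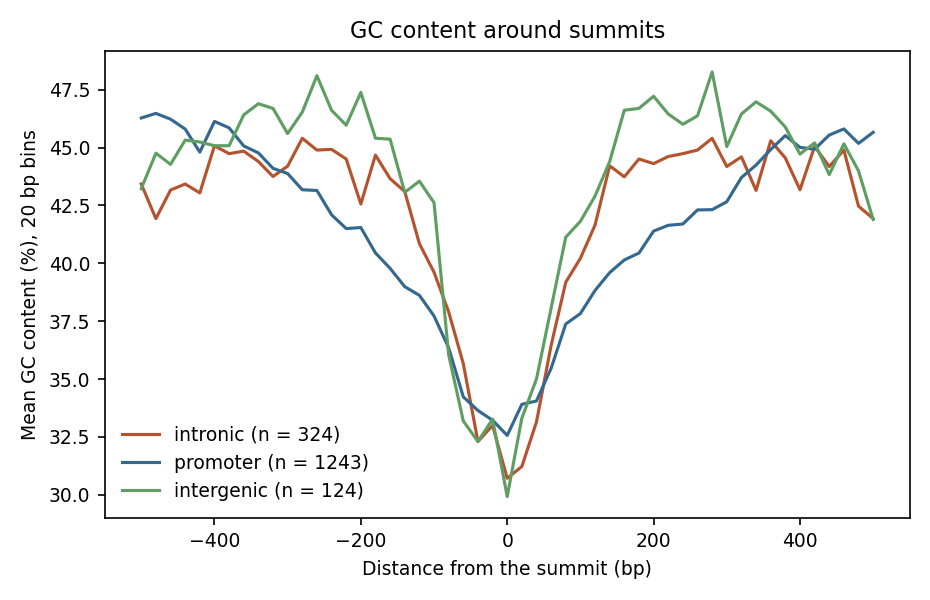
Mean GC content in 20 bp bins (y axis, percent) by distance from the summit (x axis, bp) for intronic (n = 324), promoter (n = 1243) and intergenic (n = 124) summits. For intronic summits it falls from 44.5% at 220 bp to the left to 30.7% at the summit.

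Short words followed the same composition. All hexamers, each counted together with its reverse complement, were compared between the window within 50 bp of the summit and flanks with the same number of start positions centred 300 bp away. By a two-sided exact McNemar test with Benjamini-Hochberg adjustment, 125 were more frequent at the summit (6.01% of those tested) and 125 were less frequent (6.01%). Without replicate 3, which leaves 302 summits from replicate 4 alone, 61 were more and 32 less frequent, while without replicate 4 the counts were 122 and 96. The counts were 39 and 13 within 25 bp of the summit, 57 and 36 with flanks 500 bp away, 62 and 29 with a TSS limit of 2000 bp, and 21 and 5 among the 50% of regions with the highest signal. Overlapping words are not independent. Of the 36 hexamers made of A and T alone, 33 were among the more frequent. ATATTA was present at 74 summits and in 13 flanks (adjusted p = 1.62e-09 by that exact test), and AATATA at 84 and 20 (adjusted p = 6.41e-09). ATTAAA was at 112 summits and in 46 flanks. Among the words less frequent at the summit were CTCTCC, at 2 summits and in 27 flanks (adjusted p = 0.000155 by that exact test), CCTGCC, at none (up to 1.13% by the exact interval) and in 20, and CTTGGC, at 7 and in 34 (adjusted p = 0.000826, but 0.137 without replicate 4).

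The same hexamers were compared with those at promoter summits by Fisher's exact test. None was more frequent at intronic summits (0% of those tested, 82 at an unadjusted p under 0.05), and 3 were less frequent (0.144%, 73 at an unadjusted p under 0.05). CGATAG was present at 2 intronic and 119 promoter summits (0.617% and 9.57%, odds ratio 0.0587, adjusted p = 5.12e-07 by Fisher's exact test). ATCGAT was at 9 and 135 (2.78% and 10.9%, odds ratio 0.234, adjusted p = 0.000862 by the same exact test). TATCGA was at 14 and 154 (4.32% and 12.4%, odds ratio 0.319, adjusted p = 0.00520 by the same exact test). Among the 50% of regions with the highest signal, which hold 156 intronic summits, none of these words passed the same exact test (adjusted p = 0.128 for CGATAG and 1 for the others). ATCGAT and TATCGA overlap each other as letters of the DNA replication-related element, while CGATAG shares only the letters CGATA with it. Any of the 3 words was at 23 intronic summits (7.10%), 16.9% of promoter and 6.45% of intergenic summits, a count added after these words were seen. The summits of CG32486 and for, printed above, held both ATCGAT and TATCGA, while Kdm2 and wit held TATCGA alone, and CGATAG was in summits of Pka-C3 and simj.

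The AAGTCA half-site was found at 19 intronic summits (5.86%, interval 3.57% to 9.01%), and in 14 of their flanks (4.32%, adjusted p = 0.736 by the exact McNemar test). Promoter summits held it at 5.15% (odds ratio 1.15, adjusted p = 0.997 by Fisher's exact test) and intergenic summits at 4.84%. The strongest summits with it were those of smash (296), hts (179.8) and Mekk1 (171). No enrichment of these letters was detectable at the intronic summits, which says nothing of how the protein binds.

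Of the other words searched on both strands, the A and T rich ones passed the same flank test. TATAAA was at 75 summits and 26 flanks (23.1% and 8.02%, adjusted p = 1.84e-05 by the exact test), TAATTA, the core of homeodomain sites, at 49 and 18 (adjusted p = 0.00420) and TGTTTA, of forkhead sites, at 60 and 24 (adjusted p = 0.00101). TAATTA no longer passed without replicate 3 (adjusted p = 0.0893 by the same exact test) or without replicate 4 (adjusted p = 0.230). They share the composition described above. AGGTCA, the half-site of many nuclear receptors, was at 8 summits and 14 flanks (adjusted p = 0.532 by the same exact test), and GAGAGA, of GAGA factor, at 13 and 30 (adjusted p = 0.0533). CAGCTG (7 and 21), CACGTG (1 and 6), CAGGTA (9 and 8), GATAAG (13 and 9), CATTCC (8 and 19) and ACAATG (23 and 24) did not pass either. TGACTCA, at 5 summits and in 6 flanks, was counted without a test.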

How the data were processed

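Peak lists of 2 biological replicates were analysed, on dm6. The file descriptions name them as peaks and background given to the IDR procedure, 29999 regions for each replicate and for the pooled list, and a joint IDR-thresholded list. The deposited signal value of each region has no stated scale. The deposited significance column is the −log10 of a q-value by the file format and enters no result. Which aligner, peak caller or control normalisation was used is not given in the sources used here. Sequencing depth is unknown.

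Genes came from the Ensembl release 115 annotation of the release 6 genome, and sequence from RefSeq's copy of that release. Summits were classed, matched within 100 bp and scanned with Python 3.11.15, NumPy 2.4.6 and SciPy 1.17.1, and plotted with Matplotlib 3.10.9. The hexamer scans were tested on simulated sequence with planted words and the same base composition throughout. That simulation could not show how a GC difference between summits and flanks affects the scans. Fisher's and McNemar's exact tests were two-sided, adjusted (Benjamini-Hochberg) over 6 class comparisons or all hexamers, with a threshold of 0.05.

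Named genes are hosts of the 20 strongest summits, hosts of 3 or more, and hosts on the 8 lists. Named words are the 10 leading hexamers of each scan and 14 chosen motifs. Genes at the distance limit, the neighbour of ush and the genes named for holding a word were chosen after their values were seen. So were the hosts named from outside the lists. The members and lists were chosen with earlier results of these data known. Of the listed symbols, 6 were matched to the annotation through RefSeq synonyms, after the host counts were seen. Alternatives covered the TSS distance, the matching distance, the window, the flanks, the stronger part of the list and each replicate alone.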

Additional observations from a re-analysis of the deposited data

How the results depend on the processing

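The number of intronic summits was 421 with a TSS limit of 500 bp, 229 with 2000 bp, 302 and 372 from the strongest regions of 1 replicate, and 156 among the 50% of regions with the highest signal (the stronger part), fewer there by construction. The first-intron share was 66.8% to 75.5% under those settings, and 43.5% when the intron had to be first in every transcript, a definition added after the data were seen. The odds ratio of recovery in replicate 3 against promoter summits passed the threshold at 1.46 (TSS limit of 500 bp), 3.43 (stronger part) and 3.07 (match anywhere), and against intergenic summits at 1.71 (500 bp), 1.83 (TSS of protein-coding genes alone) and 1.93 (match within 200 bp), turning to 0.866 for a match anywhere. In replicate 4 the ratio against promoter summits turned above 1, at 1.15 (2000 bp), 1.05 (match within 50 bp), 8.86 (stronger part) and 4.77 (match anywhere), the latter pair past the threshold, and against intergenic summits to 2.65 (match anywhere). The strongest-quarter odds ratio against promoter summits was 0.663 without replicate 4, past the threshold, and 0.913 without replicate 3. The count of hexamers above flanks was 39 within 25 bp, 57 with flanks 500 bp away, 61 without replicate 3, 122 without replicate 4, 21 in the stronger part and 62 with the 2000 bp limit. Some of these use fewer bases or regions; otherwise the cause was not tested. Of the hexamers named, ACAATG turned at 1.24 (flanks 500 bp away) and 1.33 (stronger part), CTTATC, the reverse complement of GATAAG, at 0.929 (flanks 500 bp away), and CAGGTA at 0.8 (stronger part) and 0.364 to 0.5 (1 replicate left out); none of these was past the threshold in any setting. Against promoter summits the word CGATAG lost its call in the stronger part (odds ratio 0), as did ATCGAT (0.321) and the word TATCGA (0.568), the latter pair also at the 2000 bp limit. TAATTA lost its call against flanks in 5 settings, CTTGGC in 4 and TGTTTA in 2. Promoter comparisons of the other words, which the report does not give, were left out of these settings after their values were seen. No paired analysis was possible because there is 1 group. Depth limits all values by an unknown amount, since the files hold no counts.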
